A study of Homo sapiens with 22 samples.

Results

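The genes described here are 10 human genes that make, activate, receive or restrain the hepatocyte growth factor signal: HGF, MET, MST1R, ST14, HPN, PLAU, PLAUR, SPINT1, SPINT2 and GAB1. They were chosen by symbol, and each matched 1 row among the 58735 genes of the human table. The tumours were xenografts of H3122, an ALK-positive human non-small cell lung cancer line, grown in immunodeficient NSG mice or in hHGF-NSG mice, which the series title calls humanized HGF-NSG. Bulk RNA sequencing was done on 22 tumours: 4 untreated, 4 after 2 weeks and 4 after 6 weeks of alectinib in NSG hosts, and 3 untreated, 4 after 2 weeks and 3 after 6 weeks in hHGF-NSG hosts. Alectinib is an ALK inhibitor, and the untreated tumours are called naive below. All groups carry the same 1 cell line, so the data speak of that line alone. For the hosts, neither the allele and promoter behind hHGF nor dose, age and sex are given in the sources used here. Nothing in the labels ties a sample to an animal of its own, so each p-value measures spread between these samples, which may be technical.

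HGF is secreted as an inactive precursor, mainly by stromal cells, and becomes a ligand when a serine protease cuts it. Matriptase (ST14) and hepsin (HPN) are membrane-bound proteases that can make this cut, urokinase (PLAU) has been described as a weaker activator, and the Kunitz-type inhibitors HAI-1 (SPINT1) and HAI-2 (SPINT2) block such proteases at the cell surface. Mature HGF binds the receptor tyrosine kinase MET, which signals through the docking protein GAB1, and in ALK-positive lung cancer this route is studied as a bypass of ALK inhibition.

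MET, its relative MST1R, PLAU and its receptor PLAUR were lower after alectinib in both hosts and at both times, with MET at 25.3 ± 1.84 FPKM (SD, n = 4; fragments per kilobase of transcript and 1000000 reads of library size) in untreated and 10.4 ± 0.823 (n = 4) in 2 weeks NSG tumours. ST14, SPINT2 and GAB1 passed the test in no comparison, and HPN and SPINT1 passed it in some. None of the 9 members tested across all genes passed the test between hosts, and HGF was tested apart. The members were spread over 7 chromosomes in GRCh38: MET at chr7:116672390-116798386 and HGF at chr7:81699008-81770438, MST1R at chr3:49887002-49903873, GAB1 at chr4:143336762-143474568, PLAU at chr10:73909177-73917497, ST14 at chr11:130159562-130210376, SPINT1 at chr15:40844018-40858207, and PLAUR, HPN and SPINT2 on chromosome 19.

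RefSeq promoter windows (GRCh38.p14) were found for 7 of the 10 members. The 250 bases before the start site are shown for the members that were lower in all 4 comparisons of treated with naive tumours, since these moved together; PLAU has 2 annotated starts. The RefSeq starts differ from the gene bounds in the deposited table, so the PLAU and PLAUR windows lie inside those bounds. Capitals mark matches, on either strand, to the AP-1 site TGAGTCA and to the ETS cores AGGAAG and CGGAAG, which are bound by factor families downstream of receptor tyrosine kinase signalling.
MET, chr7:116671946-116672195, + strand: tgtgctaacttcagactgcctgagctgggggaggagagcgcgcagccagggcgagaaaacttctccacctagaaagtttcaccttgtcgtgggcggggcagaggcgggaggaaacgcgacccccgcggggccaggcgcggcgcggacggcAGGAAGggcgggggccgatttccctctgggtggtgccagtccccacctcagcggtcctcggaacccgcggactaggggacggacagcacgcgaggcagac
MST1R, chr3:49903874-49904123, - strand: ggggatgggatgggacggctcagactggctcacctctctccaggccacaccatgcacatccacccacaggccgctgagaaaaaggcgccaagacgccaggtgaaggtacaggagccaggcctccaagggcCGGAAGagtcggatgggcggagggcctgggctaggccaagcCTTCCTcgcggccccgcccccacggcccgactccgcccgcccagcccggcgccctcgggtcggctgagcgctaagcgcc
PLAU upstream start, chr10:73910360-73910609, + strand: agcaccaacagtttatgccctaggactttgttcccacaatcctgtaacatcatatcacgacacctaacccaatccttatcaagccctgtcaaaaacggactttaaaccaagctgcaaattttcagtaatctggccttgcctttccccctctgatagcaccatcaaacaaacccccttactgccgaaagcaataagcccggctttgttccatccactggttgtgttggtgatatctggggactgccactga
PLAU downstream start, chr10:73910882-73911131, + strand: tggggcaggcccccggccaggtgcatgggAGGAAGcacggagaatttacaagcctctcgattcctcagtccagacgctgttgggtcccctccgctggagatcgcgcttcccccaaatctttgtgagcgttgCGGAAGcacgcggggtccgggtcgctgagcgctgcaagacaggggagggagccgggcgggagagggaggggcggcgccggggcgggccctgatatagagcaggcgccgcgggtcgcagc
PLAUR, chr19:43670170-43670419, - strand: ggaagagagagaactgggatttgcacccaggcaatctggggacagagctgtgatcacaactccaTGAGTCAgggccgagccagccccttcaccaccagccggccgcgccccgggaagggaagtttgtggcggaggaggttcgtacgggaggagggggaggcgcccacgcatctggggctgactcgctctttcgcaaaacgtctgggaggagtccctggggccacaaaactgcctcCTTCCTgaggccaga
The AP-1 letters were in the PLAUR window only among the 9 windows of the 7 members, with the first base at -186 from the start, and in 4.2% of all 35116 windows of this length. One or the other ETS core was in 5 of the 9 windows, against 40.8% of all windows. MST1R held CGGAAG at -120 and AGGAAG at -79, MET held AGGAAG at -100, the downstream PLAU start held AGGAAG at -221 and CGGAAG at -119, and PLAUR held AGGAAG at -15. The other window with an ETS core belonged to SPINT1. These are letter matches and say nothing about binding.

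Libraries held 10688632 to 19065656 human and 895826 to 5766509 mouse reads. The share of mouse reads was 5.50% to 13.5% in naive tumours and 8.71% to 29.0% in treated ones. All 8 epithelial and tumour line markers were present in every group. The summed FPKM of these 8 was 2472 to 3756 in naive and 1173 to 1605 in treated tumours. KRT8, KRT18 and KRT19 made up most of that sum, and the markers did not move alike. From naive to 2 weeks in NSG hosts the means of KRT19 were 780 and 191 FPKM, of EPCAM 322 and 290, and of NKX2-1 85.8 and 228. In each comparison with naive 1 of the 8 was called higher and 5 to 7 lower. The 5 human leukocyte markers summed to 0.918 FPKM or less, and of the 4 endothelial markers, summing to 4.57 to 19.9 FPKM, PECAM1 never exceeded 0.0616 while VWF, CDH5 and KDR reached 1.65, 3.32 and 17.2. Those 3 moved in both directions under alectinib: at 2 weeks in NSG hosts VWF and KDR rose by 0.54 and 0.94 in log2(FPKM + 1) and CDH5 fell by 0.56 (limma adjusted p = 0.00149, 0.00494 and 0.000214), and at 6 weeks KDR rose by 1.56 and CDH5 fell by 0.49 (adjusted p = 4.12e-05 and 0.000785). In hHGF-NSG hosts VWF rose by 0.67 and CDH5 fell by 0.32 at 2 weeks (limma adjusted p = 0.000487 and 0.0288), and VWF and KDR rose by 0.38 and 0.82 at 6 weeks (adjusted p = 0.0393 and 0.0304). VWF passed the filter on low values only through treated libraries, being at most 0.769 FPKM in naive ones, so its calls are descriptions and not tests. Of the 7 human fibroblast markers, DCN, PDGFRA and PDGFRB never exceeded 0.0393 FPKM, while COL1A1 and LUM gave the list a sum of 26.8 to 112 FPKM in naive and 5.19 to 16.4 in treated tumours. COL1A2 and COL3A1 reached at most 0.517 and 0.92 FPKM. COL3A1 went the other way, from a naive mean of 0.00486 to 0.27 FPKM at 6 weeks in NSG hosts and from 0.0165 to 0.465 in hHGF-NSG hosts. So the fibroblast sum moved in the same direction as MET, MST1R, PLAU and PLAUR, through COL1A1 and LUM and with the receptors and DCN near 0, while the mouse share moved the other way; their part in the results was not tested. In tissue RNA, fewer cells of a type and less RNA per cell cannot be told apart. In NSG naive replicate 1 there were 43 reads of human HGF, where the other 11 NSG libraries held 0 to 6, which goes against its label. NSG naive replicate 2 was the lowest of its group for MST1R, ST14, SPINT1, SPINT2, PLAU and PLAUR. It and NSG 6 weeks replicate 4 were not analysed in the mouse table.

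**Figure D1:**
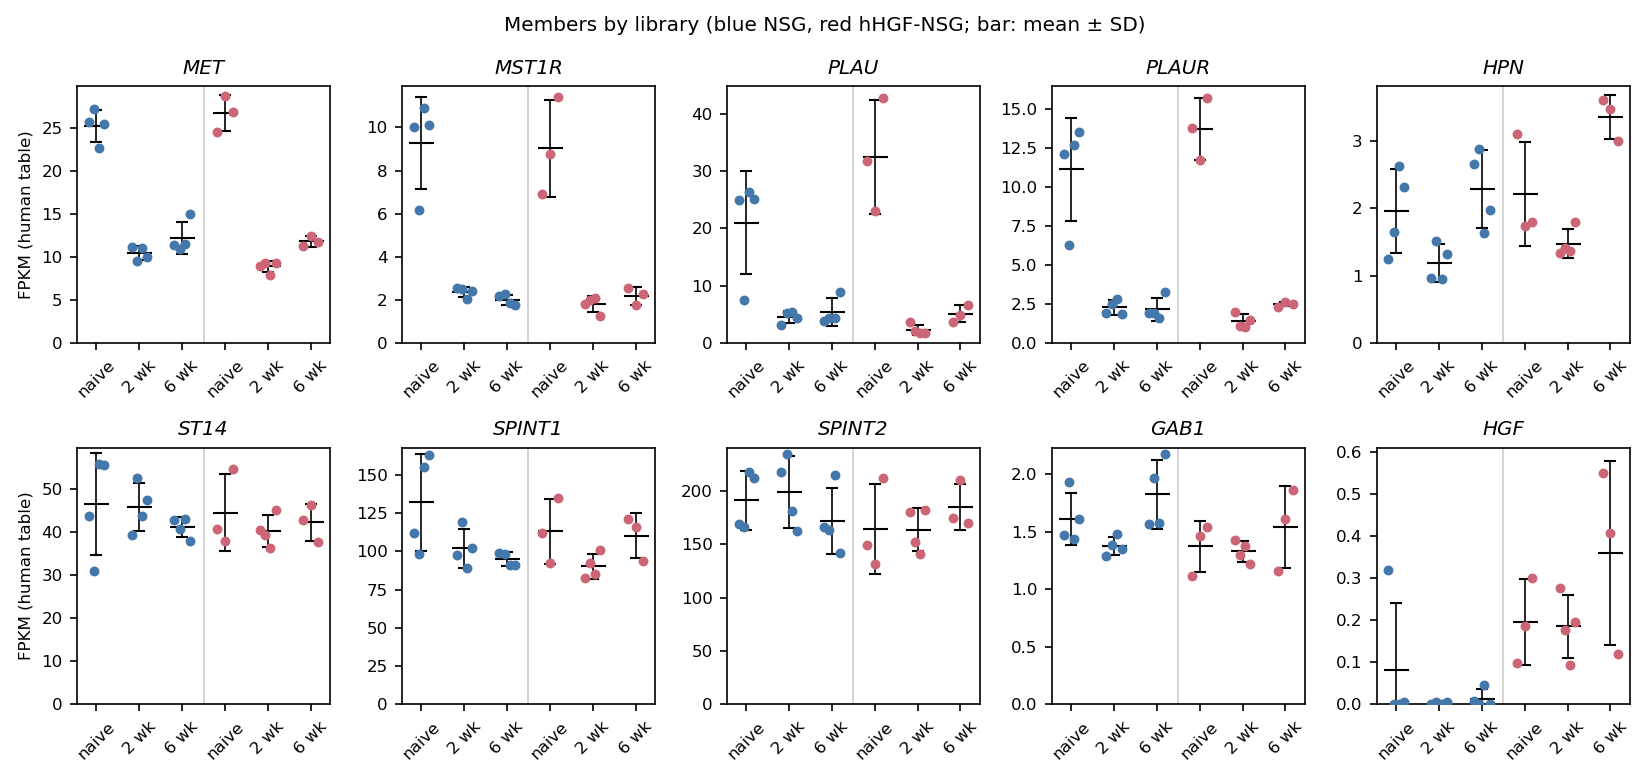
FPKM in the human table of each of the 10 members (vertical axes) in the 6 groups (horizontal axes); points are libraries, blue NSG and red hHGF-NSG, and bars are mean ± SD. MET, MST1R, PLAU and PLAUR are lower in every treated group, SPINT2 has group means of 164 to 199 FPKM throughout, and HGF stays under 0.6 FPKM.

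In naive tumours the inhibitors stood highest and the ligand lowest. SPINT2 averaged 191 ± 27.8 FPKM (SD, n = 4) and SPINT1 132 ± 32.0 in NSG hosts, above ST14 at 46.5 ± 11.8. MET followed at 25.3 ± 1.84 and PLAU at 21.0 ± 8.99 FPKM, whose libraries overlapped. PLAUR averaged 11.2 ± 3.32 and MST1R 9.30 ± 2.13 FPKM, again with overlap, and HPN and GAB1 averaged 1.96 ± 0.623 and 1.61 ± 0.224. HGF averaged 0.0815 ± 0.159 FPKM there, most of it from the 1 library noted above. In naive hHGF-NSG tumours PLAU, at 32.5 ± 9.91 FPKM (SD, n = 3), stood above MET, at 26.8 ± 2.13, with overlap. In each of the 4 treated groups SPINT2, SPINT1, ST14 and MET were the highest 4, in that order. Below them the order was looser, and after 2 weeks in hHGF-NSG hosts PLAU, MST1R, HPN, PLAUR and GAB1 lay between 1.33 and 2.33 FPKM with each neighbouring pair overlapping.

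Human HGF, the ligand, was counted in few reads. In hHGF-NSG tumours it gave 13, 28 and 44 reads in the naive libraries, 47, 33, 15 and 34 at 2 weeks, and 79, 60 and 13 at 6 weeks. In NSG tumours it gave 43, 0, 0 and 1 reads in naive libraries, 0, 1, 0 and 1 at 2 weeks, and 1, 0, 6 and 0 at 6 weeks. Every hHGF-NSG library thus exceeded every NSG library except NSG naive replicate 1. A count of 0 allows up to 3 reads, for counting error only. At 2 weeks the mean of log2(FPKM + 1) was 0.24 higher in hHGF-NSG tumours and at 6 weeks 0.41 higher. Both gave p = 0.02857 in an exact two-sided permutation test, the smallest p these group sizes allow, and 0.0857 after adjustment over 6 HGF tests. In naive tumours the difference was 0.15 (exact permutation p = 0.3143). Without NSG naive replicate 1 it was 0.25, and the p of 0.1 is the smallest that 3 against 3 can give. Within hHGF-NSG hosts HGF did not pass the test between times: 0.18 higher at 6 weeks than naive with exact permutation p = 0.3, and 0.19 higher than at 2 weeks with p = 0.2286. These 2 differences were 0.07 and 0.09 without hHGF-NSG 6 weeks replicate 1 and 0.31 and 0.32 without hHGF-NSG 6 weeks replicate 3.

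HGF reads were also set against the amount of mouse RNA in each library, since the hosts and not the tumour line are named for human HGF. Per 1000000 mouse reads, the hHGF-NSG libraries gave 11.5, 17.1 and 17.8 naive, 13.7, 17.5, 5.53 and 20.7 at 2 weeks, and 17.1, 10.4 and 2.98 at 6 weeks. These ranges overlapped between all 3 times, while the mouse share of reads was 24.3% to 29.0% at 6 weeks and 6.81% to 17.4% before. The library with fewest human HGF reads per 1000000 mouse reads, hHGF-NSG 6 weeks replicate 3, also held 6 reads of mouse Hgf, where the other 6 weeks libraries of that host held 21 and 38. NSG naive replicate 1 gave 21.3, within reach of the hHGF-NSG libraries, and 14 reads of mouse Hgf, where the other 2 naive NSG libraries with mouse values held 25 and 29 from fewer mouse reads. Whether that tumour came from an hHGF-NSG host was not tested. The sources used here do not tell how human and mouse reads were separated.

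**Figure D2:**
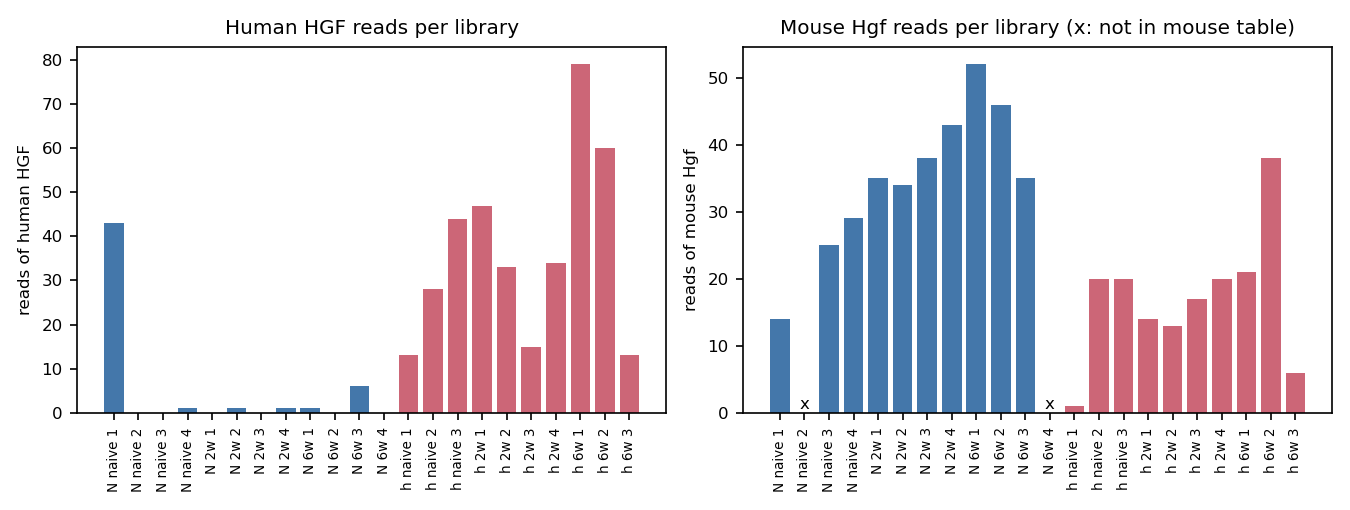
Reads of human HGF (left) and mouse Hgf (right) in each library; N marks NSG (blue), h marks hHGF-NSG (red), w is weeks, and x marks the 2 libraries not analysed in the mouse table. Human HGF is at 13 to 79 reads in hHGF-NSG libraries and at 0 to 6 in NSG libraries, apart from NSG naive replicate 1 at 43.

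MET, the HGF receptor, was lower in all treated tumours. Its naive values were 25.7, 27.2, 22.7 and 25.5 FPKM in NSG hosts and 24.6, 28.8 and 26.9 in hHGF-NSG hosts. After 2 weeks they were 11.2, 9.50, 11.1 and 9.99 in NSG hosts and 9.01, 9.31, 7.95 and 9.34 in hHGF-NSG hosts. After 6 weeks they were 11.4, 10.9, 11.5 and 15.0 in NSG hosts and 11.3, 12.5 and 11.7 in hHGF-NSG hosts. The naive and treated ranges did not overlap in either host, and NSG 6 weeks replicate 4 was the highest treated library. In the hHGF-NSG host every 6 weeks library was above every 2 weeks library, a difference of 0.38 ± 0.10 (SE) in log2(FPKM + 1), limma adjusted p = 0.0175. In NSG hosts the same difference was 0.20 ± 0.09 (limma adjusted p = 0.137), and these times overlapped. The difference in hHGF-NSG hosts lost its call without hHGF-NSG 2 weeks replicate 3 or 6 weeks replicate 2, with adjusted p up to 0.0962.

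MST1R encodes RON, the receptor for macrophage-stimulating protein and the closest relative of MET. It was 10, 6.16, 10.9 and 10.1 FPKM in naive NSG tumours and 6.92, 8.77 and 11.4 in naive hHGF-NSG tumours. At 2 weeks it was 2.53, 2.5, 2.05 and 2.42 in NSG hosts and 1.83, 2.00, 2.10 and 1.27 in hHGF-NSG hosts. At 6 weeks it was 2.17, 2.25, 1.85 and 1.78 in NSG hosts and 2.57, 1.74 and 2.25 in hHGF-NSG hosts. Treated libraries lay far below naive ones, with no overlap, and the 2 treated times overlapped in both hosts. On the log2(FPKM + 1) scale it fell by 1.58 ± 0.15 (SE) at 2 weeks and 1.75 ± 0.15 at 6 weeks in NSG hosts, and by 1.82 ± 0.16 and 1.64 ± 0.17 in hHGF-NSG hosts. The limma adjusted p was 1.37e-07 or less in all 4. MET fell by 1.20 ± 0.09, 1 ± 0.09, 1.49 ± 0.10 and 1.11 ± 0.11 in the same order. Per kilobase, MET stood at 2.09 to 4.41 times MST1R in naive NSG libraries and 3.80 to 8.46 times in treated NSG libraries. In hHGF-NSG hosts that ratio was 2.37 to 3.55 in naive and 3.79 to 7.33 in treated libraries.

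The proteases that can process HGF did not move alike. ST14, encoding matriptase, was the most abundant of the 3. It was 43.7, 31.0, 55.7 and 55.5 FPKM in naive NSG tumours and 40.6, 38.0 and 54.6 in naive hHGF-NSG tumours. All treated libraries lay between 36.3 and 52.4 FPKM, inside the naive range. The changes from naive were between -0.14 and 0.01 in log2(FPKM + 1), and none passed the test (lowest limma adjusted p = 0.449). Without NSG naive replicate 2, whose 31.0 FPKM was the lowest of all libraries, the change at 6 weeks in NSG hosts became -0.32 with adjusted p = 0.039.

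HPN, encoding hepsin, was low, with 41 to 178 reads in a library. It was 1.25, 1.65, 2.62 and 2.32 FPKM naive, 0.964, 1.52, 0.954 and 1.32 at 2 weeks, and 2.65, 2.88, 1.63 and 1.97 at 6 weeks in NSG hosts. In hHGF-NSG hosts it was 3.10, 1.74 and 1.79 naive, 1.33, 1.41, 1.36 and 1.80 at 2 weeks, and 3.60, 3.47 and 2.99 at 6 weeks. In both hosts the 6 weeks libraries all exceeded the 2 weeks libraries, while naive libraries overlapped both treated groups. HPN was 0.58 ± 0.16 (SE) higher at 6 than at 2 weeks in NSG hosts (limma adjusted p = 0.0151) and 0.82 ± 0.17 higher in hHGF-NSG hosts (adjusted p = 0.00322). Against naive it fell by 0.42 ± 0.16 at 2 weeks in NSG hosts (limma adjusted p = 0.0305) and rose by 0.46 ± 0.18 at 6 weeks in hHGF-NSG hosts (adjusted p = 0.0424). The other changes from naive were -0.35 (adjusted p = 0.0894) and 0.15 (adjusted p = 0.424). The calls against naive ended without single libraries, in NSG hosts without naive replicate 3 or 4 or 2 weeks replicate 1 or 3 (adjusted p up to 0.116), and in hHGF-NSG hosts without naive replicate 2 or 3 or 6 weeks replicate 1 or 2 (up to 0.162). Both also ended without the filter on low values (adjusted p = 0.0676 and 0.0908), and the HPN call between 6 and 2 weeks in NSG hosts ended without 6 weeks replicate 2 (0.0545).

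PLAU encodes urokinase, the protease that converts plasminogen to plasmin. It was 24.9, 7.54, 26.4 and 25.2 FPKM in naive NSG tumours and 31.7, 23.0 and 42.8 in naive hHGF-NSG tumours. At 2 weeks it was 3.18, 5.19, 5.49 and 4.39 in NSG hosts and 3.61, 2.15, 1.77 and 1.79 in hHGF-NSG hosts. At 6 weeks it was 3.80, 4.37, 4.44 and 8.97 in NSG hosts and 3.66, 4.95 and 6.66 in hHGF-NSG hosts. Only NSG naive replicate 2 came near the treated values, and NSG 6 weeks replicate 4 was above it. PLAU fell by 1.86 ± 0.32 (SE) and 1.71 ± 0.32 in log2(FPKM + 1) at 2 and 6 weeks in NSG hosts (limma adjusted p = 4.69e-05 and 0.00012). In hHGF-NSG hosts it fell by 3.32 ± 0.34 and 2.45 ± 0.37 (adjusted p = 6.96e-08 and 1.24e-05). Without NSG naive replicate 2 the NSG changes were -2.27 and -2.11, and without NSG naive replicate 1 they were -1.74 and -1.58.

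PLAUR encodes the urokinase receptor, which holds urokinase at the cell surface. It was 12.1, 6.25, 12.7 and 13.5 FPKM in naive NSG tumours and 13.8, 11.7 and 15.7 in naive hHGF-NSG tumours. At 2 weeks it was 1.90, 2.52, 2.84 and 1.87 in NSG hosts and 2.00, 1.10, 1.05 and 1.46 in hHGF-NSG hosts. At 6 weeks it was 1.94, 1.89, 1.60 and 3.24 in NSG hosts and 2.33, 2.60 and 2.51 in hHGF-NSG hosts. No treated library reached a naive one. It fell by 1.85 ± 0.19 and 1.92 ± 0.19 in NSG hosts and by 2.63 ± 0.21 and 2.08 ± 0.22 in hHGF-NSG hosts, with limma adjusted p of 1.27e-07 or less. The FPKM ratio of PLAU to PLAUR stayed between 1.21 and 2.78 in all 22 libraries. In hHGF-NSG hosts PLAU and PLAUR were 0.87 and 0.55 higher at 6 than at 2 weeks, with no overlap between the libraries, but neither passed the test (limma adjusted p = 0.137 and 0.114).

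The inhibitors remained the most abundant members. SPINT1, encoding HAI-1, was 112, 98.2, 155 and 163 FPKM in naive NSG tumours and 112, 92.2 and 135 in naive hHGF-NSG tumours. Its treated means were 102 ± 12.7 (SD, n = 4) and 94.9 ± 4.49 (n = 4) in NSG hosts, and 90.2 and 110 in hHGF-NSG hosts, at 2 and 6 weeks. It fell by 0.44 ± 0.15 (SE) in log2(FPKM + 1) at 6 weeks in NSG hosts (limma adjusted p = 0.0147), where the change at 2 weeks was -0.34 (adjusted p = 0.0537). In hHGF-NSG hosts the changes were -0.31 (adjusted p = 0.11) and -0.03 (adjusted p = 0.916). The call at 6 weeks ended without NSG naive replicate 3 or 4 (adjusted p up to 0.0693), and that at 2 weeks arose without NSG naive replicate 1 or 2, without 2 weeks replicate 2 or with voom (adjusted p = 0.0344, 0.00841, 0.0299 and 0.038). SPINT1 lies across from the antisense gene SPINT1-AS1, at 7.49 to 25.3 FPKM, and since the sources used here do not give the strand of counting, its reads are uncertain to that extent.

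SPINT2, encoding HAI-2, was 132 to 235 FPKM over all libraries. Its group means were 191, 199 and 171 in NSG hosts and 165, 164 and 185 in hHGF-NSG hosts, naive, at 2 weeks and at 6 weeks. All groups overlapped, and its changes from naive ran from -0.16 to 0.19 with limma adjusted p of 0.396 or more. The FPKM ratio of ST14 to SPINT2 averaged 0.228 to 0.272 in the 6 groups, and that of ST14 to SPINT1 averaged 0.351 to 0.449. The FPKM ratio of SPINT1 to SPINT2 averaged 0.683 in naive and 0.520 in 2 weeks NSG tumours, with 0.694 and 0.556 in hHGF-NSG tumours.

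GAB1, the docking protein that links MET to SHP2 and PI3 kinase, was 1.12 to 2.18 FPKM in all libraries. Its changes from naive were -0.13, 0.11, -0.02 and 0.10 in log2(FPKM + 1), and none passed the test (lowest limma adjusted p = 0.284). In NSG hosts the 6 weeks libraries, 1.57, 1.97, 1.58 and 2.18, were all above the 2 weeks libraries, 1.29, 1.39, 1.48 and 1.35. That difference of 0.24 ± 0.10 (SE) had limma adjusted p = 0.101.

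**Figure D3:**
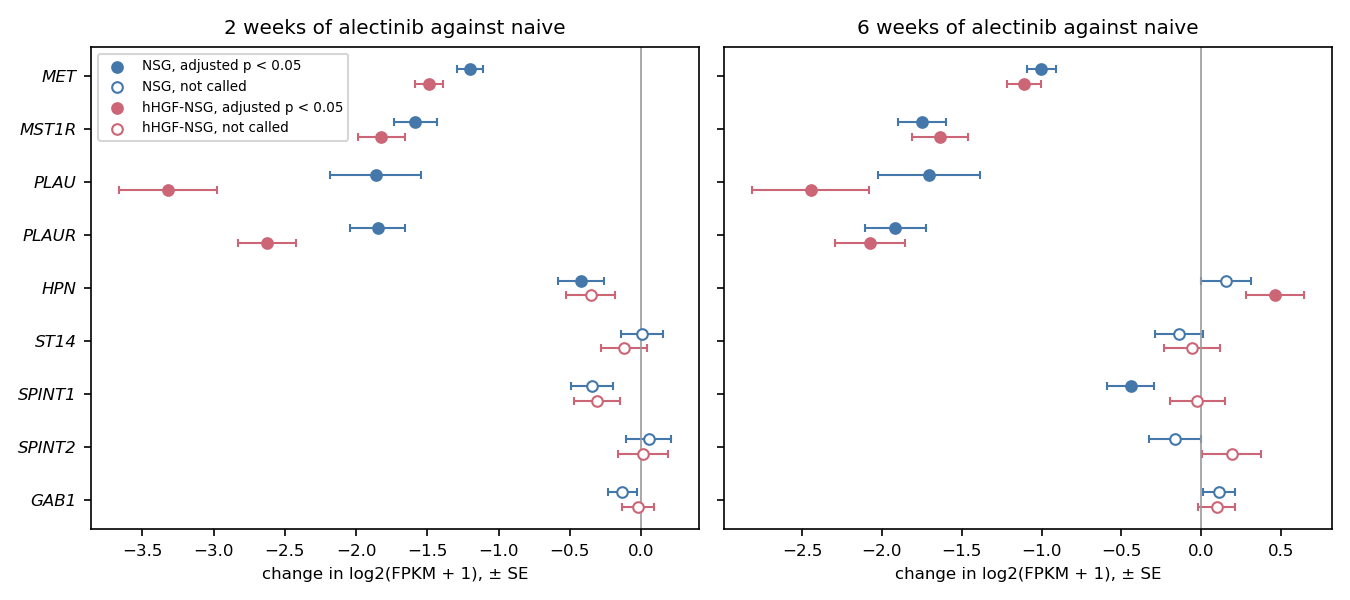
Change in log2(FPKM + 1) from naive with its SE (horizontal axes) for the 9 members tested (vertical axis), at 2 weeks (left) and 6 weeks (right); filled points have limma adjusted p under 0.05, blue is NSG and red hHGF-NSG. MET, MST1R, PLAU and PLAUR all lie at -1 or below in both hosts, while ST14, SPINT2 and GAB1 lie between -0.16 and 0.19.

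Counted over the 9 members tested, 5 were called lower and 0 higher at 2 weeks in NSG hosts, where 28.0% of all 16029 genes tested were lower and 28.1% higher. At 6 weeks in NSG hosts 5 were lower and 0 higher, against 28.8% and 28.8% of all genes. In hHGF-NSG hosts 4 were lower and 0 higher at 2 weeks, against 26.6% and 27.5%, and 4 were lower and 1 higher at 6 weeks, against 25.5% and 25.9%. The share lower, 4 or 5 of 9, exceeded the background share in all 4 comparisons. The members were chosen with earlier results of these data known, so this excess is a description and not a test. The median change over the 9 was -0.42, -0.44, -0.35 and -0.06, beside medians of 0.03, 0.03, 0.03 and 0.02 over all genes. Comparisons at 2 and 6 weeks in a host share their naive libraries. Between 6 and 2 weeks, 1 member (HPN) was higher and 0 lower in NSG hosts, against 8.43% and 11.9% of all genes. In hHGF-NSG hosts 2 members (MET and HPN) were higher and 0 lower, against 2.63% and 6.45%.

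Between hosts none of the 9 members tested with limma passed after adjustment; HGF, described above, was not among them. In naive tumours 0 of 9 members were called by limma in either direction, where 0.0187% of all genes were, and 0 had an unadjusted p under 0.05. At 2 weeks 0 of 9 were called, against 0% of all genes (0.0%), and 3 had an unadjusted p under 0.05. These were MET, PLAU and PLAUR, lower in hHGF-NSG hosts by 0.21, 0.75 and 0.46 in log2(FPKM + 1), each with limma adjusted p = 1. The MET libraries of the 2 hosts did not overlap at 2 weeks, while those of PLAU and PLAUR did. At 6 weeks 0 of 9 were called, against 0.0% of all genes, and 1 had an unadjusted p under 0.05: HPN, 0.42 higher in hHGF-NSG hosts (limma adjusted p = 0.339), with no overlap. Voom on the recovered reads also called 0 members in each of the 3 states. The share of all genes at an unadjusted p under 0.05 was not counted, so the unadjusted counts have no background beside them.

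The response to alectinib was compared between hosts by the interaction term. At 2 weeks 0 of 9 members passed (0.0% of all genes), and 3 had an unadjusted p under 0.05. For this term too the share of all genes at the unadjusted threshold was not counted. PLAU changed by 1.46 ± 0.47 (SE) more in the direction of lower values in hHGF-NSG hosts, written as -1.46, with unadjusted p = 0.00555 and limma adjusted p = 0.752. PLAUR differed by -0.78 ± 0.28 and MET by -0.29 ± 0.14, with limma adjusted p = 0.788 and 0.914. The PLAU difference was -1.05 without NSG naive replicate 2 and -1.58 without NSG naive replicate 1, so it was smaller without the library of low PLAU. At 6 weeks 0 of 9 passed (0.0% of all genes), 0 had an unadjusted p under 0.05, and PLAU differed by -0.74 ± 0.49, or by -0.33 without NSG naive replicate 2. Voom called 0 members in both interaction comparisons.

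Other genes of the route were taken from 5 lists, also chosen with earlier results of these data known. Their counts stand against the background of 25.9% to 28.8% of all genes called higher and 25.5% to 28.8% called lower in the 4 comparisons with naive, and counts such as 2 of 7 or 3 of 10 are near it. Of 10 other ligands and activators, 7 passed the filter on low values. At 2 weeks 3 were higher and 4 lower in NSG hosts, and 2 higher and 2 lower in hHGF-NSG hosts. At 6 weeks 2 were higher in each host, and 3 (NSG) and 2 (hHGF-NSG) lower. F12, coagulation factor XII, a protease of the plasma contact system, went from 7.61 ± 1.58 FPKM (SD, n = 4) naive to 2.02 ± 0.450 and 1.06 ± 0.198 in NSG hosts. PLAT, the tissue-type plasminogen activator, went from 1.69 ± 1.21 to 0.0531 ± 0.0455 at 2 weeks there, on 31 to 256 and 0 to 9 reads. TMPRSS2, a membrane serine protease, rose from 0.676 ± 0.126 to 3.13 ± 0.342 and 3.91 ± 0.662 FPKM, and its relative TMPRSS13 from 5.64 ± 0.830 to 8.33 ± 0.958 and 10.7 ± 0.920. All 4 were called in the same direction in hHGF-NSG hosts, where TMPRSS2 went from 0.564 to 2.65 and 3.51 FPKM and F12 from 6.39 to 2.05 and 1.5. TMPRSS2 and MST1, on the same list, passed the filter only through treated libraries, being at most 0.825 and 0.939 FPKM in naive ones. PLAT passed it only through naive libraries, being at most 0.28 FPKM in treated ones. The counts above include these genes, so their calls are descriptions and not tests.

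Of 5 other protease inhibitors 3 were tested, and 2 or 3 were lower and 0 higher in each of the 4 comparisons with naive. SERPINE2, protease nexin 1, went from 4.37 ± 0.746 FPKM to 2.41 ± 0.236 at 2 weeks in NSG hosts and from 4.27 ± 0.441 to 2.38 ± 0.280 in hHGF-NSG hosts. All 8 genes of co-receptors and shedding were tested, with 7 lower and 1 higher at 2 weeks in both hosts, and 5 (NSG) or 6 (hHGF-NSG) lower and 1 higher at 6 weeks. NRP1, a co-receptor for growth factors, changed most, from 18.2 ± 1.23 FPKM to 0.824 ± 0.138 and 0.437 ± 0.118 in NSG hosts and from 19.0 ± 1.85 to 0.752 ± 0.0792 and 0.637 ± 0.220 in hHGF-NSG hosts. Its naive libraries carried it past the filter on low values. ITGA6 and ITGB4, the 2 chains of a laminin receptor, fell by 1.37 and 0.93 in log2(FPKM + 1) at 2 weeks in NSG hosts (limma adjusted p = 7.09e-09 and 0.000546). PLXNB1, a semaphorin receptor that pairs with MET, rose by 0.98, from 14.5 ± 2.76 to 29.4 ± 3.85 FPKM.

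Of 15 adaptors and effectors, all tested, 9 were lower at 2 weeks and 8 at 6 weeks in NSG hosts, with 10 and 8 in hHGF-NSG hosts, and 0 were higher in any of the 4. After 2 weeks in NSG hosts PTPN11, encoding the phosphatase SHP2 that binds GAB1, had gone from 36.1 ± 4.14 FPKM to 17.4 ± 2.03. NRAS went from 22.9 ± 3.06 to 11.8 ± 0.693 and STAT3 from 23.9 ± 1.25 to 14.9 ± 1.41 there. Each of these 3 was called lower in all 4 comparisons, whereas GAB1 was called in none. Of 10 negative regulators, all tested, 3 were higher and 5 lower at 2 weeks in NSG hosts, and 3 higher and 6 lower in hHGF-NSG hosts. At 6 weeks 3 were higher and 4 lower in NSG hosts, and 2 higher and 6 lower in hHGF-NSG hosts. PTPRJ, a receptor phosphatase that acts on MET, averaged 6.47 ± 0.725 FPKM naive and 3.06 ± 0.236 at 2 weeks in NSG hosts, and SOCS3, a suppressor of cytokine signalling, 4.87 ± 1.5 and 2.98 ± 1.13. LRIG1, a membrane protein that lowers receptor levels, went from 17.9 ± 2.46 to 28.7 ± 6.32, and SOCS1 from 0.336 ± 0.165 to 1.23 ± 0.531. SOCS1 rested on 3 to 14 reads in naive and 15 to 59 in 2 weeks NSG libraries. It passed the filter only through treated libraries, being at most 0.766 FPKM in naive ones, so its calls are descriptions and not tests. At 6 weeks in hHGF-NSG hosts its libraries overlapped the naive ones. The median changes of these lists at 2 weeks in NSG hosts were -0.22, -0.65, -0.77, -0.43 and -0.18, in the order given, beside 0.03 over all genes.

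**Figure D4:**
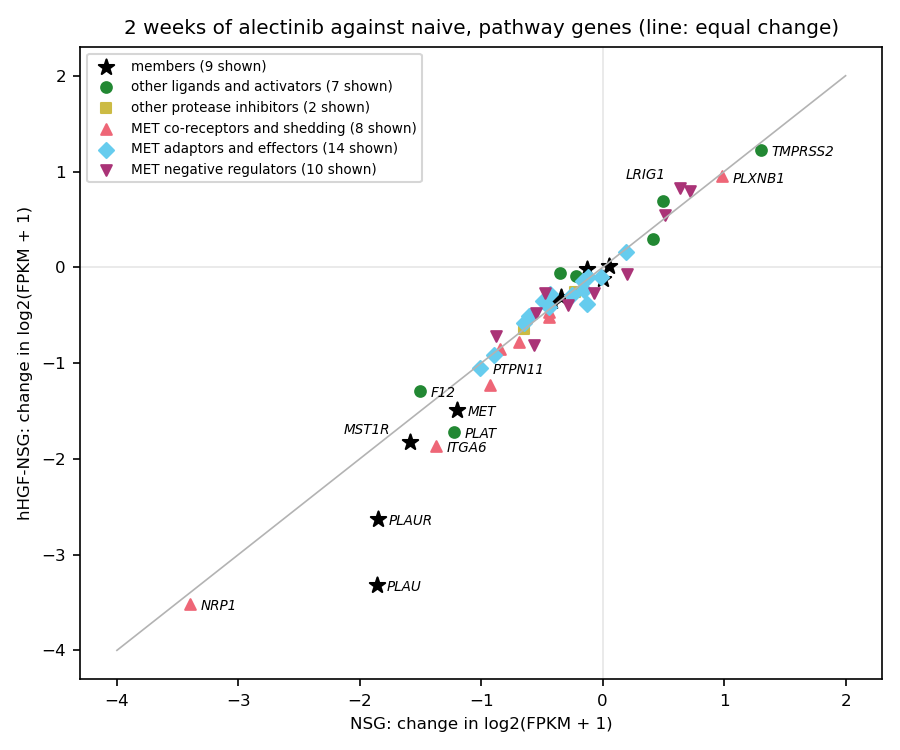
Change in log2(FPKM + 1) at 2 weeks of alectinib against naive in NSG hosts (horizontal axis) and hHGF-NSG hosts (vertical axis) for the members and genes of the 5 pathway lists, not all of which are shown; each point is a gene and the line marks equal change. PLAU (-1.86 and -3.32) and PLAUR (-1.85 and -2.63) lie furthest from the line, on the side of hHGF-NSG hosts, and the difference did not pass the test.

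Across the 22 libraries the members that fell varied together, as a description of points that share their treatment groups. Pearson's r of log2(FPKM + 1) was 0.975 for PLAU with PLAUR, 0.953 for MET with PLAUR and for MST1R with PLAUR, and 0.919 for MET with MST1R. ST14 correlated at 0.775 with SPINT1 and at 0.675 with SPINT2, and at 0.129 with MET. HPN reached at most 0.412, with SPINT1, and GAB1 at most 0.17, with MET. Among 12003 protein-coding genes with a unique symbol, the genes most like MET were CLIC4, SRP72 and TPM4, at r of 0.982 to 0.983. Among those most like PLAUR were RTN4 and PDGFB (0.983 and 0.979), those most like MST1R were PRODH, FLNC and ARAP3 (0.979 to 0.981), and those most like PLAU were PMEPA1, PALLD and ITGB6 (0.971 to 0.979).

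The mouse table gives the same genes of the host, and its FPKM were normalized apart from the human ones, so levels are not compared between species. Of the 10 mouse counterparts with Hgfac and Mst1 added, 8 of 12 passed the filter. Mouse Plau was 92.9, 153 and 165 FPKM in naive NSG tumours and 102, 84.2 and 72.2 in naive hHGF-NSG tumours. It was 61.4, 72.5, 42.6 and 81.4 at 2 weeks and 58.0, 54.1 and 59.6 at 6 weeks in NSG hosts. In hHGF-NSG hosts it was 36.5, 39.1, 37.4 and 41.6 at 2 weeks and 35.1, 32.4 and 35.1 at 6 weeks. Treated libraries lay below naive ones in both hosts with no overlap. Mouse Plau fell by 1.07 ± 0.20 (SE), 1.20 ± 0.22, 1.12 ± 0.20 and 1.29 ± 0.22 in log2(FPKM + 1), with limma adjusted p of 0.00283 or less. In reads it held 273 to 491 in naive and 164 to 448 in treated libraries, while human PLAU held 351 to 1875 and 86 to 454; whether reads of 1 species entered the other table was not tested.

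Mouse Plaur was called in no comparison. It was 25.8, 19.4 and 38.2 FPKM naive, 19.2, 26.2, 26.4 and 32.2 at 2 weeks and 15.1, 18.1 and 17.7 at 6 weeks in NSG hosts, and its change at 6 weeks of -0.63 had limma adjusted p = 0.0505. Mouse Met rose at 6 weeks in hHGF-NSG hosts, from 1.27, 1.77 and 1.69 to 2.86, 4.98 and 4.65 FPKM (0.98 ± 0.30, limma adjusted p = 0.03), and mouse Mst1r from 2.47, 2.83 and 3.21 to 5.67, 7.24 and 5.80 (0.91 ± 0.23, adjusted p = 0.00987). Both moved opposite to human MET and MST1R in the same tumours, on 11 to 217 and 14 to 206 reads. The Met call ended without any 1 of the 3 naive libraries of that host or 6 weeks replicate 2 or 3 (adjusted p = 0.051 to 0.121), and the Mst1r call without 6 weeks replicate 2 (0.0533). In NSG hosts at 6 weeks Met and Mst1r changed by 0.85 and 0.64, with limma adjusted p = 0.0595 and 0.0641, and the host difference in this response was not called (adjusted p = 0.978 and 0.919).

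Over the 8 mouse genes tested, 1 was lower and 0 higher at 2 weeks in NSG hosts, against 4.48% and 3.32% of all 14287 mouse genes tested. At 6 weeks in NSG hosts 1 was lower and 0 higher, against 8.59% and 8.81%. In hHGF-NSG hosts 1 was lower and 0 higher at 2 weeks, against 3.56% and 3.49%, and 1 lower and 2 higher at 6 weeks, against 8.12% and 9.67%. Between 6 and 2 weeks limma called 0 of 8 in NSG hosts (3.89% of all genes; 2 of 8 at an unadjusted p under 0.05) and 0 of 8 in hHGF-NSG hosts (1.08%; 4 of 8). Between hosts it called 0 of 8 naive (0.042%; 3 of 8), 0 of 8 at 2 weeks (0.371%; 3 of 8) and 0 of 8 at 6 weeks (0.252%; 3 of 8). The naive share rested on single libraries: 6 mouse genes were called with all of them, 119 without NSG naive replicate 1 and 0 without NSG naive replicate 3. For the difference in response limma called 0 of 8 at 2 weeks (0.0%; 0 of 8) and 0 of 8 at 6 weeks (0.007%; 0 of 8). The percentages are of calls after adjustment, and the share of all mouse genes at an unadjusted p under 0.05 was not counted.

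Mouse Hgf and Plau were both lower in hHGF-NSG than in NSG hosts without passing the test. At 2 and at 6 weeks every hHGF-NSG library lay below every NSG library for mouse Hgf, and its differences of -0.64 and -0.96 in log2(FPKM + 1) had limma adjusted p = 0.633 and 0.79. Mouse Plau differed by -0.63, -0.69 and -0.73 between hosts in the 3 states, with limma adjusted p = 0.307, 0.203 and 0.428. The Plau libraries of the hosts overlapped only in naive tumours, through NSG naive replicate 1 at 92.9 FPKM. That library is the one whose human HGF reads go against its label. Naive mouse Hgf overlapped through it too, at 0.872 FPKM beside 3.93 and 3.31 in NSG hosts and 0.123, 1.65 and 1.06 in hHGF-NSG hosts. Mouse Hgf rests on 1 to 52 reads in a library. The 4 counterparts that did not pass the filter were St14, Spint1, Hgfac and Mst1, with at most 21, 5, 5 and 8 reads.

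**Figure D5:**
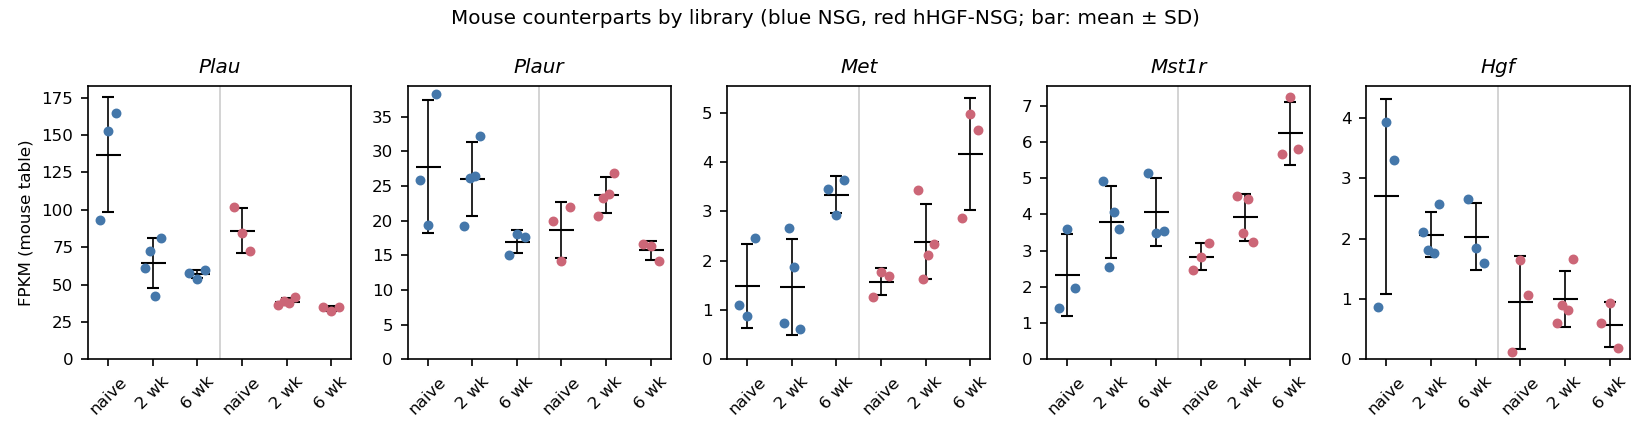
FPKM in the mouse table of 5 counterparts (vertical axes) in the 6 groups (horizontal axes); points are libraries, blue NSG and red hHGF-NSG, and bars are mean ± SD. Plau is lower in all treated groups, and Hgf is lower in hHGF-NSG than in NSG libraries of the same treated time. Met and Mst1r have their highest group means at 6 weeks in hHGF-NSG hosts, where the Met libraries overlap those of NSG hosts at 6 weeks.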

How the data were processed

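Tumour RNA was isolated with TRIzol, per the labels' protocols. The authors deposited a human and a mouse table in FPKM, per the file headers, on hg38 and mm10 per the submitters' processing notes; no aligner or annotation is named in the sources used here. Whole reads were recovered from the FPKM steps and gene lengths (100% of values whole within 0.05). The human library size implied by the deposited FPKM was 0.876 to 0.937 of these reads in naive and 0.986 to 1.11 in treated tumours, so the FPKM were not scaled by total reads. Genes at 1 FPKM or more in at least 3 libraries were tested with limma 3.58.1 in R 4.3.3 (eBayes with trend) on log2(FPKM + 1), with 1 mean per group over all 22 human or 20 mouse libraries and Benjamini-Hochberg adjustment. Fold changes on this scale understate low genes. HGF did not pass the filter and had exact permutation tests (Python 3.11.15 with numpy 2.4.6). The fit was tested on simulated data. Alternatives were a pseudocount of 0.1, no filter, median ratio scaling, a replicate block, voom and leaving out each library. Median ratio scaling gave every human library the same factor of 1.008, so the human FPKM were already level on that measure. All 10 members are named; at most 4 genes per pathway list are named, by the largest of their smallest change among those called in 1 direction in all 4 comparisons with naive, and some that meet this rule are not reported here. Members and lists were chosen with earlier results of these data known. No 2 libraries of a group were identical. Promoter sequences are from RefSeq.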

Additional observations from a re-analysis of the deposited data

Results flagged for a closer look

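In 62 groups of 4 libraries, 1 library stood apart by Dixon's test in 9 groups, where chance gives about 1 in 20 for normally distributed values. That rate does not hold for counts of few reads. The test must flag a group with 1 library above 0 and the others at 0, as in the 3 mouse groups below. MET in NSG 6 weeks replicate 4 was 15.0 FPKM, against 11.4, 10.9 and 11.5. PLAU in the same library was 8.97 FPKM, against 3.80, 4.37 and 4.44. PLAU in NSG naive replicate 2 was 7.54 FPKM, against 24.9, 26.4 and 25.2. Human HGF in NSG naive replicate 1 was 0.320 FPKM, against 0, 0 and 0.0061. Human HGF in NSG 6 weeks replicate 3 was 0.0468 FPKM, from 6 reads. HPN in hHGF-NSG 2 weeks replicate 4 was 1.80 FPKM, against 1.33, 1.41 and 1.36. In the mouse table Spint1 in NSG 2 weeks replicate 3 was 0.121 FPKM, from 1 read. Hgfac in NSG 2 weeks replicate 4 was 0.378 FPKM, from 3 reads. Mst1 in hHGF-NSG 2 weeks replicate 1 was 1.08 FPKM, from 8 reads. The other libraries of these 3 mouse groups held 0 reads.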

How the results depend on the processing

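Of 22 called changes of human members, 17 kept their call under every alternative run, among them all 16 of MET, MST1R, PLAU and PLAUR against naive, and none changed sign. Of the 77 not called, 3 gained a call under at least 1 alternative and 25 changed sign. Median ratio scaling gave all human libraries the same factor, so it could not test the human calls. Replicate numbers were not taken as pairs, since same-numbered deviations were not all correlated above 0.1 in any comparison. Between naive hosts these correlations were -0.0219, 0.242 and 0.265 for replicates 1, 2 and 3 in the human genes. Whether some numbers shared a batch there was not tested. With the replicate block, 8790, 9091, 8504 and 8104 genes were called against naive (NSG then hHGF-NSG, 2 then 6 weeks), 1 between naive hosts, and the HPN call at 6 weeks in hHGF-NSG hosts ended (adjusted p = 0.0555). A pseudocount of 0.1 gave 5 genes between naive hosts and 6 for the 6 weeks difference in response; dropping the filter gave 25 and 5. Without the filter 2 and 1 genes were called between hosts at 2 and 6 weeks and 9 for the difference in response at 2 weeks, and voom called 2 between hosts at 6 weeks. At 6 weeks in NSG hosts 2 mouse counterparts were called with a pseudocount of 0.1 and 2 with median ratio scaling. Leaving out 1 library gave 0 to 40 human genes between naive hosts and 0 to 62 for the 6 weeks difference in response. The 40 and 62 arose without NSG naive replicate 1. Host differences then numbered 0 to 1 human genes (2 weeks) and 0 to 8 (6 weeks). Members called between 6 and 2 weeks then numbered 0 to 1 (NSG) and 1 to 2 (hHGF-NSG). The mouse counterparts called were then 1 to 2 and 1 to 4 (NSG) and 1 to 2 and 1 to 3 (hHGF-NSG) against naive, and 0 to 1 between hosts naive and at 2 weeks. The cause of these shifts was not tested. HGF rests on at most 79 reads in a library.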
